A study of Mus musculus with 24 samples.

Results

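Mouse oocytes treated with SAHA were compared with the control oocytes labelled con, gene by gene, in RNA sequencing counts. The comparison rests on 4 of the 12 RNA libraries of the study (24 samples in all, the others being CUT&Tag libraries): SAHA replicates 1 and 2 and con replicates 1 and 2. The 55401 genes of the count table were divided by their counts in these 4 libraries. A first class of 8838 genes had 0 counts in both con libraries and at least 1 count in SAHA, and a second class of 8344 genes had at least 10 counts in all 4 libraries. A further 836 genes had 0 counts in both SAHA libraries and were detected in con, 5615 genes fell between these classes, and 31768 had 0 counts in all 4.

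SAHA, also called vorinostat, is a small molecule that occupies the zinc-containing active site of histone deacetylases (HDACs), whose zinc-dependent members form class I, class II and class IV. These enzymes remove acetyl groups from histone tails, mostly within corepressor complexes such as NCoR, SIN3 and NuRD, and histone acetyltransferases such as MOF (Kat8, which acetylates lysine 16 of histone H4) put them on. The sirtuins, which depend on NAD, are not inhibited by SAHA. A fully grown mouse oocyte makes little new RNA and lives on stored transcripts, so that its transcript levels depend on growth, storage and decay as well as on transcription.

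The study concerns polystyrene microplastics (PSMPs) and meiotic maturation, and its other RNA groups are in vivo PSMPs, in vitro PSMPs, PSMPs & OE-Hdac3 (exposed oocytes that overexpress Hdac3) and con-in vitro. Each library was made from 5 pooled cells, per the design text. The labels give SAHA and con by name alone. Strain, age, oocyte stage, dose, solvent and time of treatment are not stated in them, and neither is which of con and con-in vitro is the control of SAHA. Whether con oocytes were cultured is not stated either, so that culture and SAHA cannot be told apart in the difference from con. Levels in con-in vitro are given beside those of SAHA and con where they bear on a result. Nothing in the labels says that replicates came from separate animals, so that each p-value weighs a difference against the spread of the libraries at hand, which may be technical. With a pooled lysate per library, fewer cells that hold a transcript and less transcript per cell cannot be told apart.

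SAHA libraries held 19223737 and 19446397 counts, con-in vitro libraries 6219784 and 6403283, and con libraries 30745496 and 35637689. Levels are CPM, counts scaled by library total and TMM factor, and a floor of 3 counts over a group corresponded to 0.0851 CPM in SAHA and 0.427 CPM in con-in vitro, against 0.0444 CPM in con. The 2 SAHA libraries lay closer to each other than the 2 con libraries did. Pearson's r across genes, on log2(CPM + 1), was 0.984 between SAHA replicates, 0.864 between con-in vitro replicates and 0.829 between con replicates. Of the genes with at least 10 counts in all 4 libraries, 8.89% were over 2-fold apart between the SAHA replicates and 42.7% between the con replicates. Genes at 0 in 1 replicate with at least 10 counts in the other numbered 207 in SAHA, 1775 in con-in vitro and 2650 in con. A count of 0 in con was thus often not shared by the other con library, and the part of this in the class at 0 in both con libraries was not tested.

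**Figure D1:**
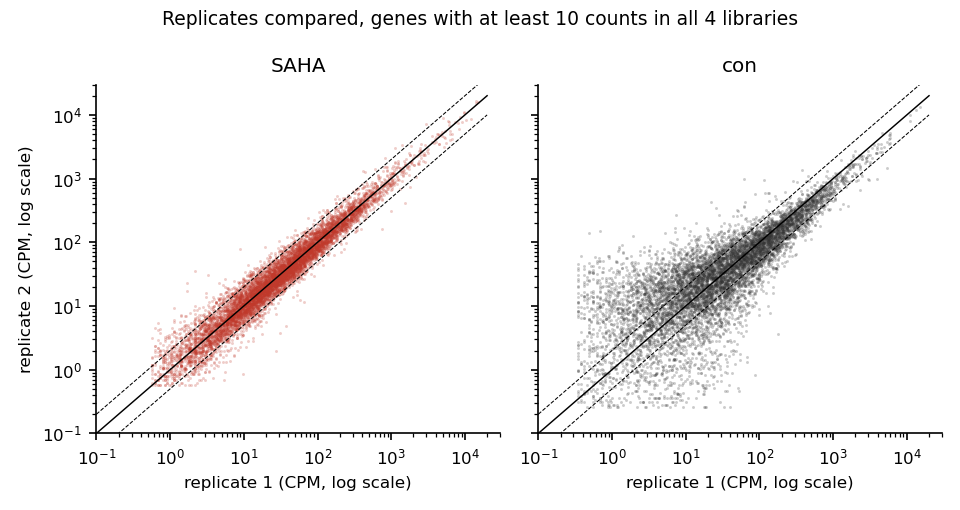
Replicate 1 (x axis) against replicate 2 (y axis) in CPM on log scales for the 8344 genes with at least 10 counts in all 4 libraries, SAHA at left and con at right. The solid line marks equal values and the dashed lines a 2-fold difference, beyond which lie 8.89% of genes in SAHA and 42.7% in con.

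Of 16736 genes that passed the expression filter, 3383 were called higher in SAHA than in con (20.2% of those tested) and 1131 were called lower (6.76%), by edgeR's quasi-likelihood test at a Benjamini-Hochberg adjusted p under 0.05. Between con-in vitro and con, 25.1% of the genes tested were called in either direction. Below, log2 fold changes are SAHA minus con with their standard error after ±, and log2 differences are con-in vitro minus con. The 2 main classes differed in make-up. Among the 8344 genes with at least 10 counts in all 4 libraries, 690 were higher (8.27%) and 1041 lower (12.5%), with a median log2 fold change of -0.18, whereas the median over all genes tested was 0.59 (0.41 to 0.71 under other scalings). That class carried 96.7% and 96.9% of the counts of the SAHA libraries and 99.0% and 98.1% of the counts of the con libraries. The class at 0 in con had 3203 of its 8838 genes tested and 2191 called higher. Its direction is fixed by the way the class was formed, so that this count is a description only.

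Each of these counts depends on both SAHA libraries being present. Without SAHA replicate 1, 144 genes were higher and 75 lower, and without SAHA replicate 2, 236 were higher and 125 lower. Without con replicate 1, 4790 were higher and 1867 lower, and without con replicate 2, 4553 were higher and 1830 lower. No gene was called in opposite directions in any of the 16 alternatives. Of the 245 called genes chosen for naming, 40 were called in all 16 alternatives that could be computed for them. A further 157 lost the call only with 1 SAHA library left out, with the 4 libraries fitted alone or in the test against a log2 fold change of 1. Genes named below that were called in both fits with 1 SAHA library left out are said to have kept their call.

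**Figure D2:**
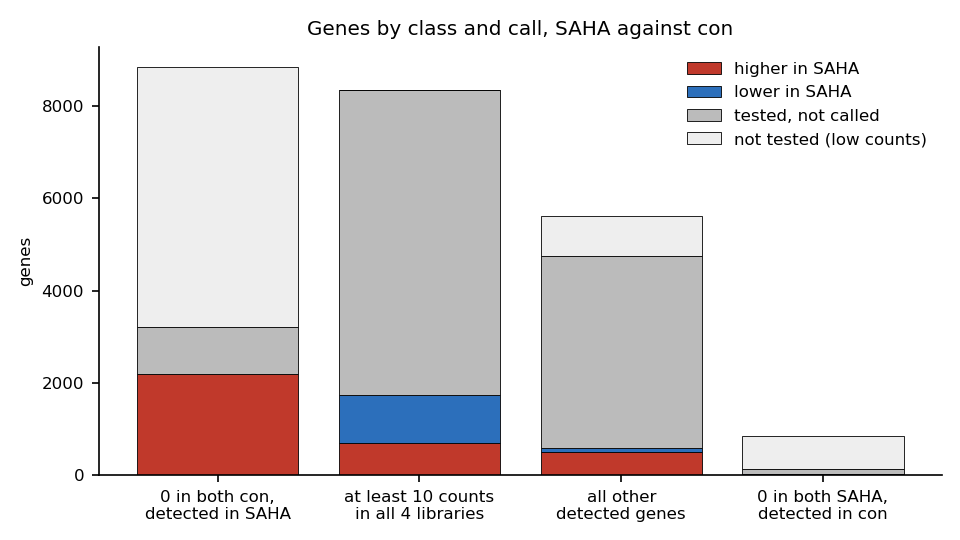
Number of genes (y axis) in each class of the count table (x axis), stacked by call in SAHA against con. The class at 0 in con holds 2191 of the 3383 genes called higher, the class with at least 10 counts in all 4 libraries holds 690 genes called higher and 1041 called lower, and the class at 0 in SAHA holds 15 called lower.

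Of the class I, class II and class IV deacetylase genes, Hdac3 and Hdac4 were called. Among class I deacetylases, Hdac3, the catalytic subunit of the NCoR complex (chr18:37935844-37955016, minus strand, build mm10), was lower, with 7.47 and 7.16 CPM in SAHA, against 23.4 and 37.4 CPM in con (log2 fold change -2.05 ± 0.45, adjusted p = 0.0149). The groups did not overlap, and con-in vitro, at 26.7 and 23.8 CPM, did not pass against con (log2 difference -0.27 ± 0.44, adjusted p = 0.767). Without SAHA replicate 1 the adjusted p was 0.076, and without SAHA replicate 2 it was 0.0794. Hdac1 and Hdac2, the paired deacetylases of SIN3 and NuRD, were not called. Hdac1 had 10.2 and 12.8 CPM in SAHA, against 0.0695 and 3.61 CPM in con (log2 fold change 2.64 ± 1.59, adjusted p = 0.26), so that its con libraries were far apart. Hdac2 had 93.9 and 94.2 CPM in SAHA, against 152 and 37.9 CPM in con, and its SAHA values lay between the con values (log2 fold change -0.02 ± 0.59, adjusted p = 1). Hdac8, which works outside these complexes, had 20.8 and 20.4 CPM in SAHA, against 1.29 and 16.8 CPM in con (log2 fold change 1.18 ± 1.04, adjusted p = 0.444).

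Of class II and class IV genes, Hdac4, which shuttles between nucleus and cytoplasm, was higher, with 31.7 and 26.8 CPM in SAHA, against 0.903 and 4.04 CPM in con (log2 fold change 3.56 ± 0.99, adjusted p = 0.0297). It was also higher in con-in vitro, at 18.4 and 48.4 CPM, than in con (log2 difference 3.75 ± 1.00, adjusted p = 0.0279). The Hdac4 call was lost without SAHA replicate 1 (adjusted p = 0.105) and without SAHA replicate 2 (adjusted p = 0.0876). Hdac6, a deacetylase of tubulin, had 2.43 and 9.72 CPM in SAHA, against 3.89 and 0.103 CPM in con, with overlapping groups (log2 fold change 1.61 ± 1.52, adjusted p = 0.477). Hdac9 had 8.54 and 14.8 CPM in SAHA, against 12.2 and 8.19 CPM in con (log2 fold change 0.20 ± 0.86, adjusted p = 0.903). Hdac7, Hdac10 and Hdac11 stayed under 1 CPM in each SAHA and con library, and Hdac5 had 0 counts in all 4. At 3 members the absence of a call depended on 1 con library. Without con replicate 2, Hdac1 was called higher (log2 fold change 7.03, adjusted p = 0.00865), and so was Hdac8 (log2 fold change 3.80, adjusted p = 0.00818). Without con replicate 1, Hdac6 was called higher (log2 fold change 5.79, adjusted p = 0.0229).

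Among the sirtuins, 1 of 7 was called higher (14.3%, against 20.2% of all genes tested) and none lower (against 6.76%). None of the 5 with at least 10 counts in all 4 libraries was called, in a class with 8.27% higher and 12.5% lower. The 1 called, Sirt3, was at 0 in con, where the direction is fixed and 68.4% of genes tested were called. Sirt3, a mitochondrial deacetylase, had 5.88 and 5.40 CPM in SAHA and no count in either con library, and was at least 127-fold higher in SAHA, a bound set by 3 counts over the group (adjusted p = 0.0232). The Sirt3 call was lost without SAHA replicate 1 (adjusted p = 0.0757) and without SAHA replicate 2 (adjusted p = 0.0737). Sirt4, another mitochondrial sirtuin, had 93.1 and 85.0 CPM in SAHA, against 41.2 and 51.9 CPM in con and was not called (log2 fold change 0.94 ± 0.54, adjusted p = 0.235). Sirt1, the nuclear sirtuin that deacetylates histones and p53, had 53.9 and 30.4 CPM in SAHA, against 133 and 24.04 CPM in con, with both SAHA values between those of con (log2 fold change -0.89 ± 0.84, adjusted p = 0.474). Sirt6, which deacetylates H3K9, had 14.8 and 11.4 CPM in SAHA, against 4.97 and 7.68 CPM in con (log2 fold change 1.05 ± 0.43, adjusted p = 0.106). Its level in con-in vitro was far above both, at 1054 and 1684 CPM (log2 difference 7.76 ± 0.57, adjusted p = 9.82e-05). Sirt2, Sirt5 and Sirt7 were not called either, with adjusted p of 0.41, 0.148 and 0.979. Without con replicate 2, Sirt2 was called higher (log2 fold change 9.85, adjusted p = 0.00734) and Sirt5 lower (log2 fold change -2.44, adjusted p = 0.0495).

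The counterpart enzymes showed calls in both directions. In the MOF complexes, 2 of 13 members tested were higher (15.4%, against 20.2% of all genes tested) and 3 lower (23.1%, against 6.76%). With at least 10 counts in all 4 libraries, 2 of 12 were higher and 3 lower, against 8.27% and 12.5% of that class. Kat8 itself had 47.9 and 85.9 CPM in SAHA, against 12.4 and 80.8 CPM in con (log2 fold change 0.52 ± 0.94, adjusted p = 0.729). Phf20, a subunit of the NSL complex, had 1031 and 851 CPM in SAHA, against 126 and 124 CPM in con (log2 fold change 2.91 ± 0.36, adjusted p = 0.00321), and kept its call with either SAHA library left out. Ogt, the O-GlcNAc transferase of the same complex, had 274 and 379 CPM in SAHA, against 79.4 and 47.1 CPM in con (log2 fold change 2.37 ± 0.53, adjusted p = 0.0155). Wdr5, a scaffold shared with H3K4 methyltransferases, had 66.2 and 145 CPM in SAHA, against 440.3 and 568 CPM in con (log2 fold change -2.25 ± 0.41, adjusted p = 0.0102). Msl2, a ubiquitin ligase of the MSL complex, had 5.37 and 1.93 CPM in SAHA, against 93.5 and 23.7 CPM in con (log2 fold change -4.00 ± 0.93, adjusted p = 0.0174). Of the 12 other acetyltransferases tested, Kat7 fell, with 52.0 and 70.1 CPM in SAHA, against 354 and 326 CPM in con (log2 fold change -2.48 ± 0.44, adjusted p = 0.00953). Kat6b rose, with 102 and 76.0 CPM in SAHA, against 44.1 and 26.4 CPM in con (log2 fold change 1.33 ± 0.41, adjusted p = 0.0406). Kat6b was higher still in con-in vitro, at 738 and 877 CPM, and its call was lost without con replicate 2 (adjusted p = 0.164). Except for Phf20, these calls were lost in at least 1 of the fits that left out a SAHA library, where the larger adjusted p reached 0.103 at Msl2 and 0.189 at Kat6b.

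Corepressor subunits of NCoR, SIN3, NuRD and CoREST included 5 of 33 called higher and 8 called lower, with a median log2 fold change of -0.49. In the class with at least 10 counts in all 4 libraries, 3 of 29 were higher and 8 lower, against 8.27% and 12.5% of all genes of that class. Kdm1a, the H3K4 demethylase of CoREST, had 26.3 and 28.1 CPM in SAHA, against 134 and 161 CPM in con (log2 fold change -2.44 ± 0.48, adjusted p = 0.0117). Chd4, the remodelling ATPase of NuRD, had 33.5 and 24.3 CPM in SAHA, against 144 and 90.6 CPM in con (log2 fold change -2.02 ± 0.51, adjusted p = 0.0223). Ing2, a histone reader of SIN3, had 9.05 and 9.10 CPM in SAHA, against 89.0 and 41.4 CPM in con (log2 fold change -2.84 ± 0.61, adjusted p = 0.0141). In the other direction, Arid4a of SIN3 had 125 and 80.6 CPM in SAHA, against 7.16 and 4.07 CPM in con (log2 fold change 4.19 ± 0.67, adjusted p = 0.00691), and the groups of all 4 genes were separate. Each of these calls was lost without at least 1 of the SAHA libraries, with the larger adjusted p from 0.0549 at Arid4a to 0.131 at Chd4.

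Proteins that bind acetylated lysine numbered 26 tested, with 5 higher (19.2%, against 20.2% over all genes tested) and 4 lower (15.4%, against 6.76%). Their 22 members with at least 10 counts in all 4 libraries had 4 higher and 4 lower. Over that class 8.27% were higher and 12.5% lower. Brd2, a bromodomain protein that binds acetylated histones, fell, with 29.4 and 43.8 CPM in SAHA, against 127 and 91.6 CPM in con (log2 fold change -1.58 ± 0.46, adjusted p = 0.033). Without con replicate 1 the adjusted p of Brd2 was 0.0618, and without SAHA replicates 1 and 2 it was 0.189 and 0.0862. Mllt3, a YEATS domain protein of the elongation machinery, had 372 and 278 CPM in SAHA, against 19.9 and 56.0 CPM in con (log2 fold change 3.10 ± 0.50, adjusted p = 0.00706). Mllt3 was at 452 and 378 CPM in con-in vitro. Its call was lost with the 4 libraries fitted alone and without SAHA replicate 1, where the log2 fold change was 2.87.

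A list of 20 genes known to rise with HDAC inhibitors in somatic cells had 15 members tested, of which 4 were higher (26.7%, against 20.2% of all genes tested) and 3 lower (20.0%, against 6.76%). At 2 of the 4, Cdkn1c and Klf6, the con count was 0, where the direction is fixed and 68.4% of genes tested were called. Cdkn1a, the cyclin-dependent kinase inhibitor p21, had 10.3 and 8.64 CPM in SAHA, against 0 and 0.0258 CPM in con, where the con value is 1 count in 1 library (ratio 640.3, 95% counting interval 114 to 25366; adjusted p = 0.014). Gadd45b, a stress sensor, had 5.94 and 12.9 CPM in SAHA, against 0 and 0.103 CPM in con (adjusted p = 0.0178). Cdkn1c, the related inhibitor p57, had 4.87 and 4.32 CPM in SAHA and 0 in con, and was at least 104-fold higher (adjusted p = 0.0189). All con values here are 0 or at most 4 counts. Klf6, a zinc finger factor, had 3.39 and 1.42 CPM in SAHA and 0 in con, and was at least 54.3-fold higher, but its call was lost without con replicate 2 (adjusted p = 0.0616). Cdkn1a and Gadd45b had no count in con-in vitro.

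The 3 members of the same list that fell had ample counts in con. H1f0, a linker histone of non-dividing cells, had 21.4 and 42.3 CPM in SAHA, against 135 and 144 CPM in con (log2 fold change -2.13 ± 0.43, adjusted p = 0.0127). Txnip, an inhibitor of thioredoxin, had 403 and 712 CPM in SAHA, against 1621 and 1550.0 CPM in con (log2 fold change -1.51 ± 0.43, adjusted p = 0.0312). Bcl2l11, the pro-apoptotic protein Bim, had 8.99 and 12.7 CPM in SAHA, against 70.8 and 55.1 CPM in con (log2 fold change -2.54 ± 0.72, adjusted p = 0.0317). In all 3 the highest SAHA library was below the lowest con library. The 5 members with at least 10 counts in all 4 libraries had a median log2 fold change of -2.13, and 3 of the 5 were called lower, against 12.5% of genes of that class. Of the same 5, none was called higher, against 8.27% of that class. None of the 7 calls of the list held in both fits with 1 SAHA library left out, where the larger adjusted p ranged from 0.0595 to 0.185. Cdkn1a and H1f0 moved in opposite directions, and their promoters are shown because both are textbook targets of HDAC inhibitors. The sequences are RefSeq's, on build GRCm38.p6, 250 bases before to 50 after the annotated start, plus strand, with the GC box GGGCGG (binding site of Sp1, searched on both strands) in capitals. The Cdkn1a window is the downstream one of 2 listed starts, at chr17:29093519-29093818, and the H1f0 window lies at chr15:79027962-79028261.
Cdkn1a: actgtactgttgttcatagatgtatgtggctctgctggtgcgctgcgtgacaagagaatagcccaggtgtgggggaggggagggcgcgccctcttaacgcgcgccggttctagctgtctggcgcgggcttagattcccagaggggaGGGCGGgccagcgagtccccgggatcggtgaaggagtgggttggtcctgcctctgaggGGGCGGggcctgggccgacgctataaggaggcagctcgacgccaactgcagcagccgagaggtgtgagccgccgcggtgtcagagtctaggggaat
H1f0: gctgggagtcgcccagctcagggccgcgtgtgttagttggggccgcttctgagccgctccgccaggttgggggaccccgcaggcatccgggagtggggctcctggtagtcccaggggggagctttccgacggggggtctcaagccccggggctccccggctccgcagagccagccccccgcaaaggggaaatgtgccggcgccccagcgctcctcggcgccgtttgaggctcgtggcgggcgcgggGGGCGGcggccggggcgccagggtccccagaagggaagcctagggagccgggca
The Cdkn1a window holds 2 such boxes, 104 and 46 bases before the start, and the H1f0 window 1, 4 bases before it. Of 27025 promoters of this length, 35.9% hold the letters on either strand, so that a match is a description of the window only. Counts per gene do not say which start was used.

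Neuronal genes with binding sites for REST, a repressor that recruits HDACs through SIN3 and CoREST, had 13 of 30 members tested. Of the 13, 4 were higher (30.8%, against 20.2% of all genes tested) and 1 lower (7.69%, against 6.76%). At 3 of the 4 the con count was 0, where the direction is fixed. The 8 members with at least 10 counts in all 4 libraries had 1 higher and 1 lower. Snap25, a vesicle fusion protein, had 3.28 and 4.55 CPM in SAHA, and Gad2, which makes the transmitter GABA, 4.47 and 5.29 CPM. Both had no count in con, and their bounds were at least 88.2-fold higher and at least 109.9-fold higher in SAHA. Scg3, a granin of secretory vesicles, had 92.3 and 101 CPM in SAHA, against 3.06 and 13.7 CPM in con (log2 fold change 3.53 ± 0.68, adjusted p = 0.0116). Slc12a5, a neuronal chloride transporter, fell, with 3.17 and 2.84 CPM in SAHA, against 61.0 and 66.1 CPM in con (log2 fold change -4.40 ± 0.61, adjusted p = 0.00437). A further 13 members had 0 counts in all 4 libraries, and each of the 5 calls was lost without at least 1 SAHA library, the larger adjusted p being 0.0543 to 0.0589 in the 4 genes given.

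**Figure D3:**
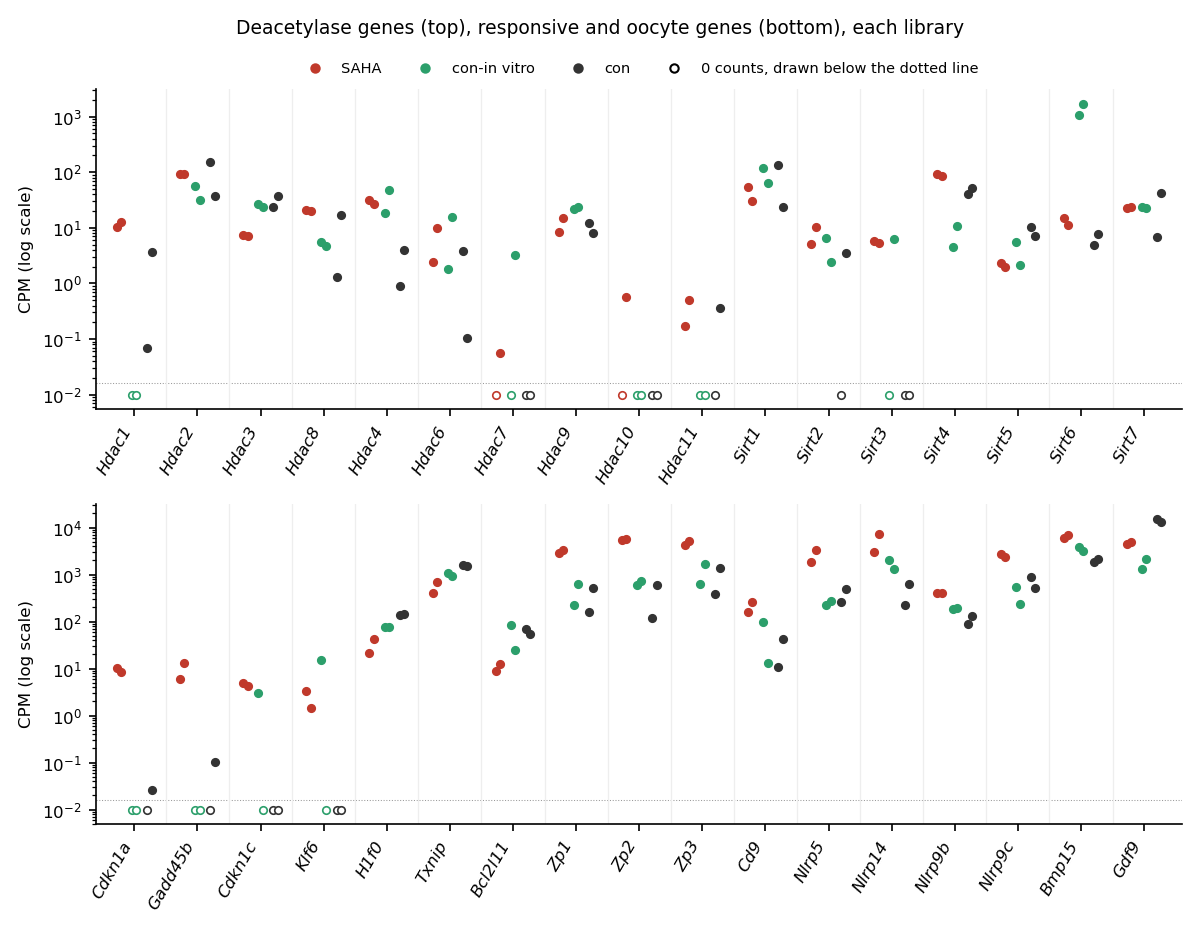
Levels in CPM (y axis, log scale) of deacetylase genes (top) and of HDAC inhibitor responsive and oocyte genes (bottom), 1 point per library, SAHA left, con-in vitro middle and con right for each gene. Open points are libraries with 0 counts. SAHA lies below both con values at Hdac3, H1f0 and Gdf9 and above them at Hdac4, Zp1 to Zp3 and Nlrp5.

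Among the oocyte's own products, the genes of the egg coat rose together. The zona pellucida is the glycoprotein coat that sperm bind, built by the oocyte from the proteins of Zp1, Zp2 and Zp3. Zp2 (chr7:120126772-120145291) had 5391 and 5663 CPM in SAHA, against 118 and 602 CPM in con (log2 fold change 3.94 ± 0.68, adjusted p = 0.00886). Zp1 had 2849.9 and 3394 CPM in SAHA, against 162 and 528 CPM in con (log2 fold change 3.18 ± 0.63, adjusted p = 0.012). Zp3 had 4215 and 5095 CPM in SAHA, against 379.7 and 1371 CPM in con (log2 fold change 2.41 ± 0.63, adjusted p = 0.0242). The SAHA replicates were close in all 3 genes, while the con replicates differed several-fold, and the groups did not overlap. In con-in vitro, Zp2 was at 587 and 721 CPM and did not pass against con (log2 difference 0.86 ± 0.61, adjusted p = 0.358). Cd9, the egg membrane protein needed for sperm fusion, had 163 and 256 CPM in SAHA, against 11.1 and 43.3 CPM in con (log2 fold change 2.94 ± 0.96, adjusted p = 0.0492), a call that was lost without con replicate 1 (adjusted p = 0.102). Itpr1, the calcium channel that drives egg activation, fell, with 40.7 and 29.7 CPM in SAHA, against 159 and 87.5 CPM in con (log2 fold change -1.81 ± 0.44, adjusted p = 0.0189). In the list of zona and fertilization genes, 4 of 8 tested were higher and 1 lower, against 8.27% and 12.5% of genes with at least 10 counts in all 4 libraries, and none of the 5 calls remained in both fits that left out a SAHA library (larger adjusted p 0.0549 to 0.174).

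The promoter of Zp3 (chr5:135979855-135980154, plus strand, GRCm38.p6, RefSeq) is shown because the oocyte factor Figla is known to drive the zona genes through E-boxes. The letters CANNTG, which read the same on both strands, are in capitals.
Zp3: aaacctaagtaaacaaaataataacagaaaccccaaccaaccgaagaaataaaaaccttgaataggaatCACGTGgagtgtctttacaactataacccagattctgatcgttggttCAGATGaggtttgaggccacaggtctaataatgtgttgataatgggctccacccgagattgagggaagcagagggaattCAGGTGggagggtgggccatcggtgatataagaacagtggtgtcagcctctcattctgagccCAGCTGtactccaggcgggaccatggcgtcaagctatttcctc
It holds 4 matches, at 181, 134 and 55 bases before the annotated start and 7 bases after it. A match to CANNTG occurs in 72.1% of all 27025 promoters, so that its presence singles out no gene.

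The subcortical maternal complex is a store of maternal proteins under the egg membrane that early cleavage needs. The list of 12 genes drawn up for it also takes in the oocyte-expressed Nlrp9b, Nlrp9c and Nlrp14. Its shares are thus not those of the complex alone. All 12 were tested, and 6 were higher (50.0%, against 8.27% of genes with at least 10 counts in all 4 libraries) and none lower (against 12.5%). The median log2 fold change was 1.66, against -0.18 over that class. The other 6 had fitted fold changes above 0 that did not pass the test. Nlrp5, also called Mater, had 1853 and 3269 CPM in SAHA, against 255 and 493 CPM in con (log2 fold change 2.78 ± 0.42, adjusted p = 0.00617), and it kept its call with either SAHA library left out. Nlrp14, a relative needed for early development, had 2976 and 7197 CPM in SAHA, against 225 and 625 CPM in con (log2 fold change 3.58 ± 0.60, adjusted p = 0.00784). Nlrp9b had 400.4 and 399 CPM in SAHA, against 89.7 and 134 CPM in con (log2 fold change 1.84 ± 0.31, adjusted p = 0.00761). Nlrp9c had 2798 and 2352 CPM in SAHA, against 904 and 531 CPM in con (log2 fold change 1.84 ± 0.46, adjusted p = 0.0206). Nlrp9 genes are close copies, and how reads were shared among them is not stated. Without con replicate 2 the adjusted p of Nlrp9c was 0.0844, and the calls of Nlrp14, Nlrp9b and Nlrp9c were lost without 1 SAHA library, with a larger adjusted p up to 0.0885.

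Growth factors secreted by the oocyte were called in both directions. Bmp15 had 6098 and 6887 CPM in SAHA, against 1845 and 2146 CPM in con (log2 fold change 1.70 ± 0.31, adjusted p = 0.00946). Its partner Gdf9, also secreted towards the cumulus cells, had 4455 and 4829 CPM in SAHA, against 15248 and 13139.7 CPM in con (log2 fold change -1.61 ± 0.34, adjusted p = 0.0134). Bmp6, of the same TGF-beta superfamily, had 7.24 and 11.1 CPM in SAHA, against 114 and 231 CPM in con (log2 fold change -4.23 ± 0.48, adjusted p = 0.00237), and kept its call with either SAHA library left out. Foxo3, the factor that keeps primordial follicles dormant, had 138 and 103 CPM in SAHA, against 426 and 320.5 CPM in con (log2 fold change -1.63 ± 0.32, adjusted p = 0.0121). Foxo3 stood at 21469 and 22544 CPM in con-in vitro (log2 difference from con 5.88 ± 0.39, adjusted p = 8.25e-05). Of 19 transcription factors and growth factors of the oocyte tested, 1 was higher (5.26%, against 20.2% of all genes tested) and 4 lower (21.1%, against 6.76%). The 18 with at least 10 counts in all 4 libraries had 1 higher and 4 lower, against 8.27% and 12.5% of that class. Apart from Bmp6, these calls were lost without at least 1 SAHA library, with the larger adjusted p at most 0.0733.

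As a check of the label, all 14 oocyte markers were detected in all 4 libraries, and they summed to 47147 and 51303 CPM in SAHA, 10439 and 11636 CPM in con-in vitro, against 40334 and 40009.6 CPM in con. Of the 14, 6 were higher in SAHA (42.9%, against 20.2% of all genes tested) and 1 lower (7.14%, against 6.76%). The 13 with at least 10 counts in all 4 libraries had 6 higher and 1 lower, against 8.27% and 12.5% of that class. Markers of cumulus and granulosa cells, the somatic cells around the oocyte, summed to 77.3 and 85.2 CPM over 20 genes in SAHA, 109.8 and 32.8 CPM in con-in vitro, against 42.1 and 66.0 CPM in con. Cyp19a1, Nr5a2 and Kitl made up most of the SAHA sums, and none of the 3 was called. Fshr, the receptor for follicle-stimulating hormone, had 2.49 and 1.02 CPM in SAHA, and Inha, an inhibin subunit, 1.53 and 0.967 CPM, both with no count in con. Of the 20, 11 had 0 counts in con and some in SAHA, and 5, Amh, Btc, Ereg, Inhbb and Ptx3, had none in all 4. The 9 theca and stroma markers summed to 4.13 and 4.61 CPM in SAHA, 0 in both con-in vitro libraries, and 0 and 3.86 CPM in con. Of these Dcn was called, at 2.32 and 3.30 CPM in SAHA and 0 in con. The 7 blood cell markers summed to 1.92 and 3.92 CPM in SAHA, 0 in both con-in vitro libraries, and 0.834 and 0 CPM in con, and Cd68 was called, at 1.64 and 3.35 CPM in SAHA and 0 in con. Col1a2, Col3a1, Lum, Ptprc and Lyz2 had no count in the 4 libraries. The part of other cells in the genes at 0 in con was not tested. The calls of Fshr, Inha, Dcn and Cd68 were lost with 1 SAHA library left out, with a larger adjusted p up to 0.0699.

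Meiotic cell cycle genes gave 11 of 52 higher (21.2%, against 20.2% over all genes tested) and 8 lower (15.4%, against 6.76%). With at least 10 counts in all 4 libraries, 8 of 46 were higher and 8 lower, against 8.27% and 12.5% of that class. Smc1b, the meiotic cohesin subunit, had 43.9 and 34.0 CPM in SAHA, against 0 and 0.0515 CPM in con (ratio 1317, 95% counting interval 364 to 10886; adjusted p = 0.00184). Fbxo5, or Emi1, an inhibitor of the anaphase-promoting complex, had 134 and 125 CPM in SAHA, against 11.3 and 21.1 CPM in con (log2 fold change 3.00 ± 0.43, adjusted p = 0.00504). Both genes rose. Mapk3, a kinase that helps hold the egg at metaphase II downstream of Mos, had 599 and 868 CPM in SAHA, against 129 and 226 CPM in con (log2 fold change 2.04 ± 0.45, adjusted p = 0.0151). The SAHA libraries lay above the con libraries at all 3 genes. Espl1, the separase that cleaves cohesin, fell, with 63.5 and 75.4 CPM in SAHA, against 662 and 453 CPM in con (log2 fold change -3.00 ± 0.39, adjusted p = 0.0036). Rad21, the mitotic cohesin subunit, had 38.6 and 29.2 CPM in SAHA, against 398 and 184 CPM in con (log2 fold change -3.10 ± 0.50, adjusted p = 0.00713). Incenp of the chromosomal passenger complex had 20.0 and 15.4 CPM in SAHA, against 116 and 195 CPM in con (log2 fold change -3.13 ± 0.59, adjusted p = 0.011). Pde3a, the phosphodiesterase whose activity lowers cAMP before meiosis resumes, had 111 and 78.7 CPM in SAHA, against 415 and 444 CPM in con (log2 fold change -2.18 ± 0.41, adjusted p = 0.0112). At these 4 genes the SAHA libraries lay below the con libraries. In con-in vitro Pde3a stood at 391 and 362 CPM. Smc1b and Fbxo5 kept their calls with either SAHA library left out, while the other genes given lost the call in at least 1 of these fits, with adjusted p up to 0.0754.

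Genes that store and clear maternal mRNA gave 6 of 33 higher (18.2%, against 20.2% over all genes tested) and 7 lower (21.2%, against 6.76%). With at least 10 counts in all 4 libraries, 5 of 31 were higher and 7 lower, against 8.27% and 12.5% of that class. Lsm14b, a component of the oocyte's RNA storage compartment, had 89.0 and 67.0 CPM in SAHA, against 1892 and 1713 CPM in con (log2 fold change -4.53 ± 0.52, adjusted p = 0.00259). Lsm14b was highest in con-in vitro, at 21236 and 45005 CPM. Its relative Lsm14a had 287 and 357 CPM in SAHA, against 1948 and 1229 CPM in con (log2 fold change -2.30 ± 0.35, adjusted p = 0.00571). The decapping factor Dcp1a had 471 and 469 CPM in SAHA, against 2859 and 2219.5 CPM in con (log2 fold change -2.43 ± 0.34, adjusted p = 0.00437). Subunits of the CCR4-NOT deadenylase, which shortens poly(A) tails, moved both ways. Cnot9 rose, with 211 and 225 CPM in SAHA, against 6.70 and 20.9 CPM in con (log2 fold change 3.98 ± 0.55, adjusted p = 0.00453). Cnot7, a catalytic subunit, rose, with 2526 and 2672 CPM in SAHA, against 1134 and 764 CPM in con (log2 fold change 1.45 ± 0.32, adjusted p = 0.0152). Cnot11 fell, with 96.5 and 124 CPM in SAHA, against 475 and 412 CPM in con (log2 fold change -2.01 ± 0.30, adjusted p = 0.00571). The call of Cnot7 was lost without con replicate 2 (adjusted p = 0.0654). Lsm14b and Cnot9 kept their calls with either SAHA library left out, and the larger adjusted p of the other 4 genes went up to 0.0661, at Cnot7.

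Among 28 writers and erasers of histone methylation, 4 were higher (14.3%, against 20.2% of all genes tested) and 9 lower (32.1%, against 6.76%). Their median log2 fold change was -0.97. With at least 10 counts in all 4 libraries, 3 of 23 were higher and 9 lower, against 8.27% and 12.5% of that class. Kmt2b, the H3K4 methyltransferase of the growing oocyte, had 11.8 and 10.5 CPM in SAHA, against 279 and 293 CPM in con (log2 fold change -4.68 ± 0.39, adjusted p = 0.00173), and con-in vitro, at 19.6 and 19.4 CPM, was below con too (log2 difference -3.88 ± 0.38, adjusted p = 0.000274). Cxxc1, the CpG-binding partner of H3K4 methyltransferases, had 12.05 and 18.9 CPM in SAHA, against 124 and 112 CPM in con (log2 fold change -2.93 ± 0.57, adjusted p = 0.0118). Setdb1, which methylates H3K9, had 32.0 and 27.2 CPM in SAHA, against 148 and 198 CPM in con (log2 fold change -2.55 ± 0.36, adjusted p = 0.00471). Nsd2, which methylates H3K36, had 16.2 and 9.84 CPM in SAHA, against 94.1 and 174 CPM in con (log2 fold change -3.36 ± 0.55, adjusted p = 0.00756). Kmt2d, an H3K4 methyltransferase of enhancers, rose, with 177 and 151 CPM in SAHA, against 25.9 and 28.2 CPM in con (log2 fold change 2.60 ± 0.34, adjusted p = 0.0036), as did the H3K27 demethylase Kdm6b, with 379.9 and 336 CPM in SAHA, against 129 and 125 CPM in con (log2 fold change 1.498 ± 0.35, adjusted p = 0.0175). Both were higher still in con-in vitro, at 481 and 664 CPM and 1564 and 2811 CPM. Kmt2b and Kmt2d kept their calls with either SAHA library left out, and the other 4 did not (larger adjusted p up to 0.0789, at Kdm6b).

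DNA methylation genes had 3 of 14 higher (21.4%, against 20.2% over all genes tested) and 2 lower (14.3%, against 6.76%). With at least 10 counts in all 4 libraries, 2 of 10 were higher and 2 lower, against 8.27% and 12.5% of that class. Zfp57, which guards imprints, had 454 and 294 CPM in SAHA, against 15.4 and 33.6 CPM in con (log2 fold change 3.93 ± 0.58, adjusted p = 0.00571). Trim28, the corepressor that Zfp57 recruits, had 54.5 and 88.8 CPM in SAHA, against 533 and 461 CPM in con (log2 fold change -2.79 ± 0.49, adjusted p = 0.00945). Dnmt3l, the cofactor of DNA methylation in the growing oocyte, had 89.1 and 128 CPM in SAHA, against 26.5 and 32.6 CPM in con (log2 fold change 1.88 ± 0.45, adjusted p = 0.0177). Tet3, which oxidizes methylcytosine in the zygote, had 374 and 311 CPM in SAHA, against 1827 and 1705 CPM in con (log2 fold change -2.37 ± 0.42, adjusted p = 0.00946). All 4 pairs of groups were separate. Their calls were lost without at least 1 SAHA library, with the larger adjusted p from 0.0509 to 0.0945.

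Cytosolic ribosomal protein genes were lower more often than higher. Of 82 tested, 17 were lower and 1 higher, 67 had a fitted log2 fold change below 0, and the median was -1.56. In the class with at least 10 counts in all 4 libraries, 15 of 64 were lower and none higher, against 12.5% and 8.27%. Rps12 had 3.45 and 2.62 CPM in SAHA, against 61.6 and 139 CPM in con (log2 fold change -5.05 ± 0.55, adjusted p = 0.00198), and it kept its call with either SAHA library left out. Rpl22 had 13.7 and 11.8 CPM in SAHA, against 112 and 82.6 CPM in con (log2 fold change -2.93 ± 0.49, adjusted p = 0.00761). Rpsa had 7.24 and 6.198 CPM in SAHA, against 33.9 and 70.6 CPM in con (log2 fold change -2.96 ± 0.54, adjusted p = 0.00963). Rpl26 had 0.226 and 0.569 CPM in SAHA, against 6.50 and 23.1 CPM in con (log2 fold change -5.20 ± 0.83, adjusted p = 0.00695). In con-in vitro Rps12 was at 20.5 and 23.5 CPM and Rpsa at 18.99 and 25.7 CPM. Over 87 genes, these transcripts summed to 2126 and 1720 CPM in SAHA, 2729 and 1767 CPM in con-in vitro, against 2713 and 5817 CPM in con, so that the con libraries differed from each other by more than the lower of them differed from SAHA. Many processed copies of these genes exist in the mouse genome, and how reads were shared among them is not stated. Proteins of the mitochondrial ribosome showed 3 of 76 higher (3.95%, against 20.2% of all genes tested) and 1 lower (1.32%, against 6.76%).

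Transcripts encoded in mitochondrial DNA were lower for 4 of 13 protein genes (30.8%, against 6.76% of all genes tested) and higher for none (against 20.2%). With at least 10 counts in all 4 libraries, 4 of 10 were lower, against 12.5% of that class. The median log2 fold change of the 13 was -1.35. mt-Co1, a subunit of cytochrome oxidase, had 1517 and 408 CPM in SAHA, against 5867 and 4269 CPM in con (log2 fold change -2.40 ± 0.63, adjusted p = 0.025). The 13 genes summed to 5337 and 1864 CPM in SAHA, 3828 and 1861 CPM in con-in vitro, against 19838.5 and 8708 CPM in con. The call of mt-Co1 was lost without SAHA replicate 1 (adjusted p = 0.0509) and without SAHA replicate 2 (adjusted p = 0.0999). The other 3 calls, at mt-Nd2, mt-Nd4 and mt-Nd5, were lost in those fits too and without con replicate 1, where the adjusted p was 0.0667, 0.106 and 0.195.

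Nuclear genes of respiratory complex I had 6 of 36 tested higher (16.7%, against 20.2% over all genes tested) and none lower (against 6.76%). All 6 were among its 29 members with at least 10 counts in all 4 libraries. Over that class 8.27% of genes were higher and 12.5% lower. The median of the 36 was 0.02, and its sign depended on the scaling. Ndufa10 had 274 and 274 CPM in SAHA, against 13.9 and 16.3 CPM in con (log2 fold change 4.18 ± 0.41, adjusted p = 0.00184), and it kept its call with either SAHA library left out. Ndufa1 had 148 and 118 CPM in SAHA, against 13.3 and 21.0 CPM in con (log2 fold change 2.95 ± 0.50, adjusted p = 0.00766). Ndufa3 had 42.1 and 35.7 CPM in SAHA, against 2.08 and 2.32 CPM in con (log2 fold change 4.14 ± 0.98, adjusted p = 0.0178). Complexes II to V had 8 of 39 higher (20.5%) and 4 lower (10.3%). Among their 36 members with at least 10 counts in all 4 libraries, 6 were higher and 4 lower. Uqcrc2, a core subunit of complex III, had 468 and 408 CPM in SAHA, against 26.7 and 68.3 CPM in con (log2 fold change 3.20 ± 0.52, adjusted p = 0.00744). The groups were separate. Its partner Uqcrc1 had 9.39 and 15.9 CPM in SAHA and no count in con or con-in vitro, and was at least 285-fold higher in SAHA. Sdha, of complex II and the tricarboxylic acid cycle, fell, with 60.2 and 70.3 CPM in SAHA, against 299.7 and 221 CPM in con (log2 fold change -1.995 ± 0.42, adjusted p = 0.014). Other than Ndufa10, these calls were lost without at least 1 SAHA library, with the larger adjusted p up to 0.0791, at Sdha.

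Glycolysis enzymes had 4 of 14 tested higher (28.6%, against 20.2% of all genes tested) and none lower (against 6.76%). Their median log2 fold change was 1.95, against 0.59 over all genes tested. The 8 members with at least 10 counts in all 4 libraries had 3 higher and none lower, against 8.27% and 12.5% of that class. Their median was 0.83, against -0.18 over that class. Ldhb, the lactate dehydrogenase subunit of the oocyte, had 14355 and 16625 CPM in SAHA, against 1999 and 2708 CPM in con (log2 fold change 2.72 ± 0.29, adjusted p = 0.00195), and it kept its call with either SAHA library left out. In con-in vitro Ldhb was below con, at 649 and 599.9 CPM (log2 difference -1.91 ± 0.28, adjusted p = 0.00198). Pkm, pyruvate kinase, had 114 and 235 CPM in SAHA, against 24.6 and 49.3 CPM in con (log2 fold change 2.24 ± 0.52, adjusted p = 0.0175). Gpi1, glucose phosphate isomerase, had 19.9 and 24.7 CPM in SAHA, against 3.33 and 3.14 CPM in con (log2 fold change 2.78 ± 0.70, adjusted p = 0.0212). Pfkp, a phosphofructokinase, had 8.15 and 9.27 CPM in SAHA, against 0.0695 and 0 CPM in con, the con value being 2 counts (ratio 294, 95% counting interval 80.8 to 2441). Besides Ldhb the calls were lost without at least 1 SAHA library (larger adjusted p up to 0.103).

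Among genes of the endoplasmic reticulum, 3 genes of protein folding and the transcription factor Xbp1 rose, while the stress sensor Ern1 and the transcription factors Atf4 and Atf6 fell. Hspa5, the chaperone BiP, had 311 and 498 CPM in SAHA, against 35.2 and 32.8 CPM in con (log2 fold change 3.57 ± 0.37, adjusted p = 0.00184), and kept its call with either SAHA library left out. Hsp90b1 had 212 and 208 CPM in SAHA, against 55.4 and 28.2 CPM in con (log2 fold change 2.33 ± 0.42, adjusted p = 0.00993). Pdia3, a disulfide isomerase, had 140.4 and 184 CPM in SAHA, against 4.65 and 19.4 CPM in con (log2 fold change 3.75 ± 0.69, adjusted p = 0.0103). The stress sensor Ern1 had 303 and 249.6 CPM in SAHA, against 1527 and 912 CPM in con (log2 fold change -2.14 ± 0.41, adjusted p = 0.0113), and all SAHA values lay below those of con. Xbp1, the factor whose RNA Ern1 splices, had 1.92 and 5.91 CPM in SAHA and no count in con, and was at least 88.3-fold higher. The stress-induced transcription factor Atf4 had 23.0 and 21.8 CPM in SAHA, against 56.3 and 169 CPM in con (log2 fold change -2.33 ± 0.52, adjusted p = 0.0156). Atf6, a factor released from the membrane by stress, had 22.2 and 33.7 CPM in SAHA, against 90.9 and 135 CPM in con (log2 fold change -2.02 ± 0.52, adjusted p = 0.0229). Over the list, 5 of 19 were higher (26.3%, against 20.2% of all genes tested) and 3 lower (15.8%, against 6.76%). The 15 with at least 10 counts in all 4 libraries had 3 higher and 3 lower, against 8.27% and 12.5% of that class. The larger adjusted p without 1 SAHA library went up to 0.140 for these genes apart from Hspa5.

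**Figure D4:**
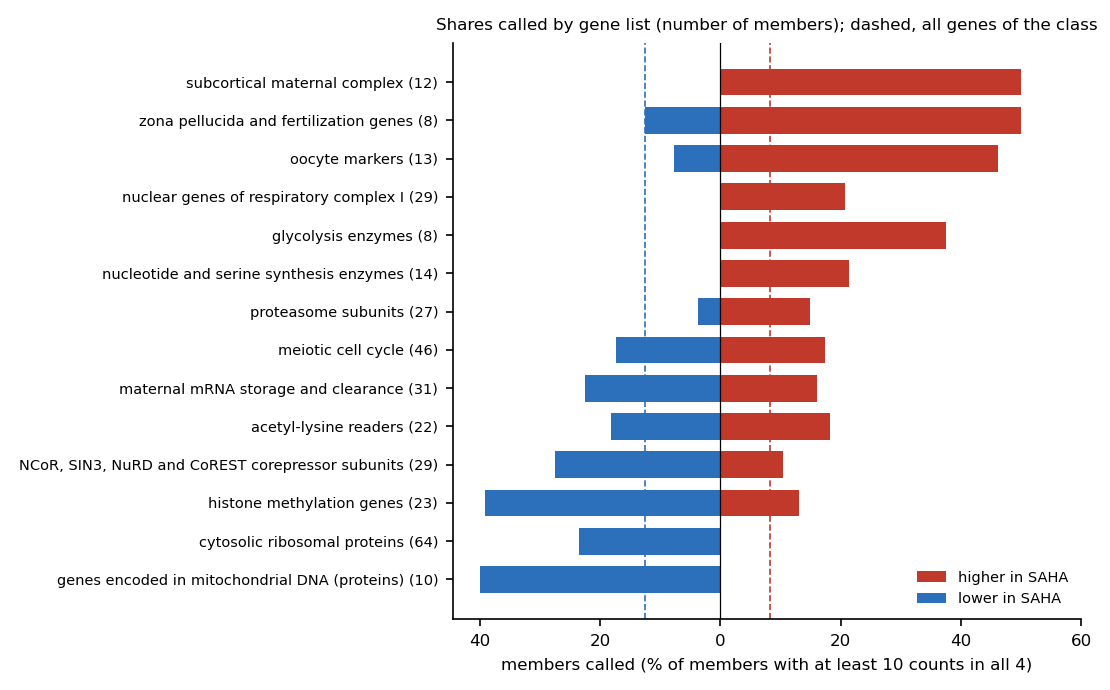
Share of list members called higher (right of 0) or lower (left of 0) in SAHA, in percent of the members with at least 10 counts in all 4 libraries, whose number stands in brackets. Dashed lines mark the shares over all genes of that class, 8.27% higher and 12.5% lower.

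Across all genes with at least 10 counts in all 4 libraries, the 12 largest rises by log2 fold change included transcription factors and proteasome subunits. These genes, and the falls given after them, were chosen among those whose groups do not overlap, so that their separation is no result. Klf17 (chr4:117757836-117765648, minus strand), a zinc finger transcription factor of the germline and early embryo, had 1754 and 2558 CPM in SAHA, against 36.2 and 54.2 CPM in con (log2 fold change 5.58 ± 0.43, adjusted p = 0.00173). Psmd11, a subunit of the proteasome lid, had 258 and 352 CPM in SAHA, against 5.38 and 1.00 CPM in con (log2 fold change 6.58 ± 0.80, adjusted p = 0.00318). The con replicates of Psmd11 were further apart than its SAHA replicates, whereas at Klf17 both pairs were about equally far apart. Psmd1, another proteasome subunit, had 482 and 536 CPM in SAHA, against 0.868 and 17.7 CPM in con (log2 fold change 5.77 ± 1.19, adjusted p = 0.0132). Tmsb10, an actin-binding thymosin, had 300.2 and 313 CPM in SAHA, against 2.85 and 10.97 CPM in con (log2 fold change 5.47 ± 0.68, adjusted p = 0.0033). Cited2, a coactivator that binds the acetyltransferases p300 and CBP, had 269 and 341 CPM in SAHA, against 9.83 and 4.48 CPM in con (log2 fold change 5.41 ± 0.55, adjusted p = 0.00184). At all 3 genes the con replicates were further apart than the SAHA replicates. Dennd6a, an exchange factor of Rab14, had 1381 and 1261 CPM in SAHA, against 38.8 and 17.7 CPM in con (log2 fold change 5.55 ± 0.50, adjusted p = 0.00173). Ecd, a splicing and cell cycle protein, had 266 and 404 CPM in SAHA, against 1.70 and 9.27 CPM in con (log2 fold change 5.93 ± 0.79, adjusted p = 0.00409). A further 4 of the 12 were Ccdc18, Rln3, Zfp984 and Zfp982, with SAHA levels from 29.9 to 229 CPM. Zfp982 and Zfp984 belong to a cluster of near-identical genes, so that their values are uncertain.

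Of the genes named, Psmd11, Ecd, Klf17, Dennd6a, Tmsb10 and Cited2 kept their calls with either SAHA library left out, whereas Ccdc18, Rln3, Psmd1, Zfp984 and Zfp982 did not (larger adjusted p up to 0.0857). Levels in con-in vitro sorted the genes. Dennd6a was at 1394 and 1079 CPM there, close to SAHA and above con (log2 difference 5.45 ± 0.50, adjusted p = 0.000232). Klf17 was at 356 and 372 CPM, between SAHA and con (log2 difference from con 3.01 ± 0.39, adjusted p = 0.00102), and Psmd11 at 121 and 150.2 CPM (log2 difference from con 5.41 ± 0.76, adjusted p = 0.00166). Tmsb10, at 6.82 and 4.92 CPM, lay at the level of con (log2 difference -0.24 ± 0.60, adjusted p = 0.895). At Dennd6a, Klf17 and Psmd11 the controls themselves differed, so that the size of the SAHA difference depends on which control is taken.

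The 12 largest falls in the same class included chromatin and signalling genes. Bahd1 (chr2:118900377-118924528, plus strand), a heterochromatin protein that recruits HDACs, had 2.26 and 2.05 CPM in SAHA, against 186 and 185 CPM in con (log2 fold change -6.42 ± 0.65, adjusted p = 0.00184). Phf23, a reader of methylated H3K4, had 2.09 and 1.88 CPM in SAHA, against 143 and 139 CPM in con (log2 fold change -6.14 ± 0.61, adjusted p = 0.00184). Ints3, a subunit of Integrator, had 1.87 and 1.31 CPM in SAHA, against 97.9 and 149.98 CPM in con (log2 fold change -6.28 ± 0.60, adjusted p = 0.00182). The replicates of each group were within 2-fold of each other at all 3 genes. Gnb2, a G protein beta subunit, had 3.11 and 3.13 CPM in SAHA, against 156 and 116 CPM in con (log2 fold change -5.45 ± 0.55, adjusted p = 0.00184). Ksr1, a scaffold of the Ras pathway, had 2.83 and 1.99 CPM in SAHA, against 81.5 and 97.2 CPM in con (log2 fold change -5.21 ± 0.60, adjusted p = 0.00235). Stk11, the kinase Lkb1 that activates AMPK, had 0.905 and 1.25 CPM in SAHA, against 21.7 and 57.1 CPM in con (log2 fold change -5.18 ± 0.78, adjusted p = 0.00591). The con replicates were over 2-fold apart at Stk11. Wrnip1, which guards stalled replication forks, had 3.51 and 1.54 CPM in SAHA, against 98.3 and 113 CPM in con (log2 fold change -5.39 ± 0.62, adjusted p = 0.00235). Smco4, a small membrane protein, had 3.45 and 6.77 CPM in SAHA, against 183 and 156 CPM in con (log2 fold change -5.05 ± 0.60, adjusted p = 0.00295). The remaining genes were Map3k21, Tnk2, Agap3 and Dact3, each at 3.00 CPM or less in SAHA.

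Bahd1, Ints3, Phf23, Gnb2, Wrnip1, Ksr1 and Smco4 kept their calls with either SAHA library left out. Map3k21, Tnk2, Agap3, Dact3 and Stk11 did not, and the larger adjusted p among them reached 0.109. In con-in vitro, Phf23 was at 65.0 and 164 CPM and Stk11 at 44.2 and 123.5 CPM, near con or above it (log2 differences -0.30 ± 0.49, adjusted p = 0.768 and 1.09 ± 0.65, adjusted p = 0.269). Gnb2, at 8.01 and 5.19 CPM, and Ksr1, at 6.23 and 5.46 CPM, were low in con-in vitro as in SAHA (log2 differences from con -4.37 ± 0.53, adjusted p = 0.000699 and -3.93 ± 0.57, adjusted p = 0.00174).

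**Figure D5:**
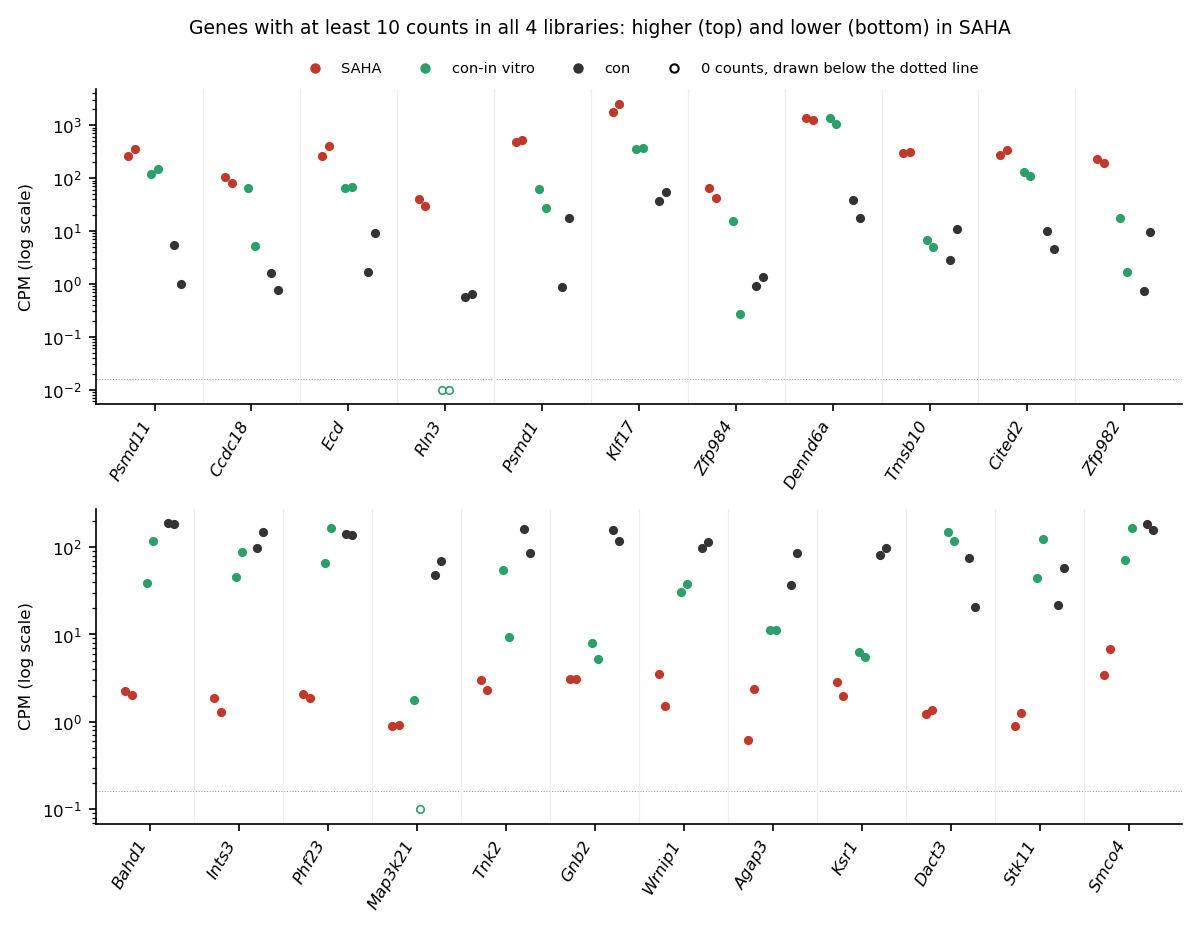
Levels in CPM (y axis, log scale) of 11 of the 12 largest rises (top) and the 12 largest falls (bottom) in SAHA among genes with at least 10 counts in all 4 libraries, 1 point per library, SAHA left, con-in vitro middle and con right. Open points are libraries with 0 counts, and con-in vitro lies near SAHA at Dennd6a, Gnb2 and Ksr1 and near con at Tmsb10 and Phf23.

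The class at 0 in con was made mostly of genes with low counts. Its median level in SAHA was 0.142 CPM, 1359 genes averaged at least 1 CPM, 93 averaged at least 10 CPM, and 4030 were seen in 1 SAHA library only. Together the 8838 genes took 0.679% and 0.629% of the SAHA counts. Gene models with no name of their own made up 52.1% of the class, against 10.7% of the class with at least 10 counts in all 4 libraries. Their lengths in the count table were shorter as well, at a median of 1974 bases, against 4402. At the edge of the class, 225 genes with 1 con count in all had a median of 0.199 CPM in SAHA. At the edge of the other class, 79 genes whose lowest count was 10 had a median of 2.13 CPM in SAHA and 3.56 CPM in con, and 63 genes whose lowest count was 9 had 0.963 and 2.55 CPM.

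Genes of this class were not equally absent elsewhere. Of the 2191 called genes, 950 (43.4%) had at least 1 count in con-in vitro, despite its smaller depth. Detection reached 1640 genes (74.9%) in in vivo PSMPs, 2177 (99.4%) in in vitro PSMPs and 2133 (97.4%) in PSMPs & OE-Hdac3. Of the whole class, 1816 of 8838 (20.5%) were detected in con-in vitro.

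Id2, an inhibitor of helix-loop-helix factors (chr12:25093799-25097140, minus strand), stood out by level, at 117 and 79.1 CPM in SAHA with no count in con or con-in vitro. It was at least 2209-fold higher in SAHA than in con. Rrp1b, a nucleolar protein of ribosome assembly, had 94.4 and 80.4 CPM in SAHA and was at least 1969.8-fold higher, with 22.8 and 73.2 CPM in con-in vitro. Papolg, a poly(A) polymerase, had 37.9 and 21.3 CPM in SAHA and was at least 667-fold higher, with 218 and 127 CPM in con-in vitro, above SAHA. Eif1a, a translation initiation factor, had 34.5 and 33.3 CPM in SAHA (at least 763-fold higher) and 5.93 and 27.9 CPM in con-in vitro. Malat1, a nuclear long noncoding RNA, had 31.5 and 18.1 CPM in SAHA (at least 559-fold higher) and 0.890 and 9.29 CPM in con-in vitro. Hltf, a helicase-like remodeller of stalled forks, had 40.1 and 41.4 CPM in SAHA (at least 918-fold higher), and its con-in vitro replicates were far apart, at 0.890 and 41.0 CPM. The other 6 of the 12 highest were Zmym1, Ccdc73, Ccdc25, Prss8, Garem1 and Rgl1, between 24.6 and 66.4 CPM in SAHA libraries. Id2, Rrp1b, Zmym1, Ccdc73, Eif1a, Papolg and Garem1 kept their calls with either SAHA library left out, and the larger adjusted p of the others reached 0.0596.

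In the reverse class, of 836 genes at 0 in SAHA, 122 were tested and 15 called lower. Ankrd66, an ankyrin repeat gene, had 15.4 and 11.95 CPM in con and none in SAHA or con-in vitro, and was at least 160.5-fold lower in SAHA. Mab21l3 had 4.72 and 10.5 CPM in con and was at least 89.2-fold lower in SAHA, with 5.34 and 12.6 CPM in con-in vitro. Als2cl had 3.44 and 3.68 CPM in con and was at least 41.9-fold lower. None of the 8 genes chosen for naming from this class kept its call with either SAHA library left out (larger adjusted p 0.0754 to 0.186). Slc14a1, a urea transporter just outside the class with 6 counts in SAHA, had 0.339 and 0 CPM in SAHA, against 209 and 231 CPM in con (log2 fold change -10.28 ± 1.497, adjusted p = 0.00531). In con-in vitro it had 4.75 and 7.10 CPM, and the call was kept with either SAHA library left out.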

How the data were processed

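RNA was measured in 12 libraries of 6 groups, each from 5 pooled cells amplified with a full-length single-cell kit, per the labels' protocols. The deposited table gives raw counts per gene, which the authors made before deposit. The submitters' processing notes name fastp 0.12.4, HISAT2, SAMtools, featureCounts, DESeq2, Picard, Bowtie2 2.2.5, deepTools 3.5.1 and build mm10, without saying which served the RNA libraries. Strand setting and the treatment of shared reads are not given in the sources used here, so overlapping, antisense and near-identical genes are uncertain. CUT&Tag libraries were not analysed here.

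Both in vivo PSMPs libraries agreed within sampling noise (chi-square over degrees of freedom 0.444) and were counted as 1 sample, leaving 11 libraries and 5 residual degrees of freedom. Counts of all 6 groups were fitted together with edgeR 4.0.16 (R 4.3.3) after TMM scaling and edgeR's expression filter at a minimum count of 10, which kept 16736 of 55401 genes. The quasi-likelihood F test with robust dispersion compared SAHA with con, and con-in vitro with con, with Benjamini-Hochberg adjustment over all genes tested and a threshold of 0.05. The biological coefficient of variation was 71.9%. Library totals and replicate agreement stand in the report, and no counts of other series were present.

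A gene at 0 in a group is given as a bound against a floor of 3 counts over that group, and one with 1 to 3 counts as a ratio with its 95% Poisson interval. Named genes were, in the class with at least 10 counts in all 4 libraries, the 12 largest rises and falls called, with non-overlapping groups and a mean of at least 10 CPM. They were also the 12 called genes highest in SAHA at 0 in con, the 8 called genes highest in con at 0 in SAHA, up to 4 called genes per direction and list by smallest p (where none passed, the one of smallest p), and all deacetylases, sirtuins and Kat8. Gene models without a name were left out of the first 3 sets. Some genes chosen by this rule are not reported here. The members, classes and lists were chosen with earlier results of these data known.

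Alternatives covered other scalings, filters, DESeq2 1.42.0, limits on fold change, libraries left out and a replicate block. Promoter sequences came from RefSeq tables on GRCm38.p6, matched by symbol for 3 of 3 genes printed. Figures were drawn with matplotlib 3.10.9 in Python 3.11.15.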

Additional observations from a re-analysis of the deposited data

How the results depend on the processing

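The number of genes called in SAHA against con was sensitive to which libraries entered the fit. With 1 SAHA or con library left out, the counts ranged from 144 to 4790 for genes higher and from 75 to 1867 for genes lower. The same fits gave 47 to 1988 genes at 0 in con called higher and 0 to 37 genes at 0 in SAHA called lower. Genes with at least 10 counts in all 4 libraries ranged from 70 to 1018 higher and from 74 to 1496 lower. In each case the low end came from leaving out SAHA replicate 1, and with 0 genes at 0 in SAHA also without SAHA replicate 2. With only the 4 libraries fitted, 1024 genes were higher and 426 lower. Of these, 772 were at 0 in con and 2 at 0 in SAHA, while 211 higher and 416 lower had at least 10 counts in all 4. With a minimum count of 50, 1760 were higher, 827 of the genes at 0 in con and 6 at 0 in SAHA were called, fewer genes being tested. With no filter 27 genes at 0 in SAHA were called. The DESeq2 Wald test called 1256 genes of the class with at least 10 counts higher. Testing against a log2 fold change of 1 left 641 lower, and 380 higher and 575 lower in that class. With con-in vitro left out of the fit, an alternative chosen after seeing the data, 1751 were lower, 1591 of them with at least 10 counts in all 4. Apart from these and from the replicate block given next, the counts stayed within 1.5 times of the reported ones under the alternatives run, and the cause of the changes was not tested beyond the smaller number of genes or libraries.

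Replicate numbers did not pair the libraries: same-numbered libraries deviated from their group means with correlations of -0.288 to 0.0566. With a replicate block, 2273 genes were higher and 835 lower, with 1450 called at 0 in con and 4 at 0 in SAHA. Opposite calls were looked for over all genes, as given above. Changes of sign with or without a call were looked for at the genes chosen for naming only, and none of the called ones turned round. The uncalled ones among them were all deacetylases, sirtuins or Kat8, named whatever their values, and some of these turned round. Other genes that were not called were not examined for this. Hdac2 had a log2 fold change of -0.02, 0.0597 with DESeq2's size factors or Wald test, 0.17 with the replicate block, and -0.89 to 1.31 with 1 library left out. Sirt7 had a log2 fold change of -0.07 ± 0.81, 0.10 with DESeq2's size factors or Wald test, 0.0271 with the replicate block, and -0.85 to 1.57 with 1 library left out. With 1 library left out, Hdac11 ranged from -0.12 to 5.38, Sirt1 from -1.85 to 0.81, Kat8 from -0.27 to 2.24 and Hdac9 from -0.26 to 0.54. At the unadjusted level of 0.05, 6618 genes passed. The depth of con-in vitro limits what a 0 shows there, and counting intervals and floors cover counting error only.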

Other observations

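The gene groups outside the main account are given with their shares. Over all genes tested, 20.2% were higher and 6.76% lower. The 20.2% includes the class at 0 in con, where the direction is fixed and 68.4% of its genes tested were called. In the class with at least 10 counts in all 4 libraries, 8.27% were higher and 12.5% lower. The proteasome, which degrades tagged proteins, had 5 of 33 members higher (15.2%) and 1 lower (3.03%). Its 27 members with at least 10 counts in all 4 libraries had 4 higher and 1 lower. Besides the subunits given above, Psmb2, of the catalytic core, had 577 and 459 CPM in SAHA, against 91.1 and 149.8 CPM in con (log2 fold change 2.10 ± 0.35, adjusted p = 0.00719). Kinesins, the motors of the spindle, had 6 of 30 higher (20%) and 1 lower (3.33%). Their 22 members with at least 10 counts in all 4 libraries had 4 higher and 1 lower. Kif20b, a kinesin of late mitosis, had 436 and 299.6 CPM in SAHA, against 29.5 and 17.1 CPM in con (log2 fold change 3.98 ± 0.54, adjusted p = 0.00437), and kept its call with either SAHA library left out. Kif20a, which carries the passenger complex to the midzone, had 198 and 354 CPM in SAHA, against 34.5 and 57.5 CPM in con (log2 fold change 2.58 ± 0.46, adjusted p = 0.00946). In con-in vitro Kif20b was at 54.9 and 27.9 CPM, below both SAHA libraries but not below con. Tubulin genes had none of 15 higher and 2 lower (13.3%), and Tubb4b had 67.1 and 68.9 CPM in SAHA, against 165 and 484 CPM in con (log2 fold change -2.26 ± 0.72, adjusted p = 0.0454), a call lost without con replicate 2 (adjusted p = 0.12).

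Enzymes of nucleotide and serine synthesis had 8 of 24 higher (33.3%), 5 of them at 0 in con, and none lower. Their 14 members with at least 10 counts in all 4 libraries had 3 higher and a median log2 fold change of -0.40. Gart, of purine synthesis, had 3.96 and 6.198 CPM in SAHA and 0 in con and con-in vitro. In cholesterol synthesis 5 of 20 were higher (25%), 2 of them at 0 in con, and 1 lower (5%). Idi1, an isomerase of the pathway, had 164 and 139 CPM in SAHA, against 9.59 and 1.73 CPM in con (log2 fold change 4.75 ± 0.85, adjusted p = 0.0096). Fatty acid oxidation had 4 of 20 higher (20%), all 4 at 0 in con and at 0.453 and 1.08 CPM in SAHA for Cpt1a, the carnitine transferase. Autophagy genes had 4 of 30 higher (13.3%) and 2 lower (6.67%), among them Map1lc3a, an LC3 protein of the autophagosome, with 82.9 and 83.9 CPM in SAHA, against 10.0 and 19.3 CPM in con (log2 fold change 2.51 ± 0.61, adjusted p = 0.0189), and Atg16l1, of the conjugation complex, with 112 and 233 CPM in SAHA, against 934 and 732 CPM in con (log2 fold change -2.27 ± 0.40, adjusted p = 0.00911). In the p53 and DNA damage list 3 of 19 were higher (15.8%) and 2 lower (10.5%), with none higher among its 14 members with at least 10 counts in all 4 libraries. The Bcl2 family had 4 of 16 higher (25%), all 4 at 0 in con, and 1 lower (6.25%). None of its 8 members with at least 10 counts in all 4 libraries was higher. Among antioxidant genes 3 of 25 were higher (12%) and 2 lower (8%). Sod2, the mitochondrial superoxide dismutase, was among those lower, with 30.6 and 21.4 CPM in SAHA, against 92.3 and 90.8 CPM in con (log2 fold change -1.82 ± 0.43, adjusted p = 0.0175).

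Imprinted genes, expressed from 1 parental allele, had 6 of 17 higher (35.3%), 4 of them at 0 in con, and 1 lower (5.88%). Their 9 members with at least 10 counts in all 4 libraries had 2 higher and 1 lower. Mest had 446 and 603 CPM in SAHA, against 126 and 102 CPM in con (log2 fold change 2.203 ± 0.39, adjusted p = 0.00947), and Snrpn had 52.2 and 53.4 CPM in SAHA, against 12.1 and 10.1 CPM in con (log2 fold change 2.25 ± 0.62, adjusted p = 0.0277). Grb10, an adaptor that restrains growth, fell, with 11.8 and 10.3 CPM in SAHA, against 65.9 and 74.0 CPM in con (log2 fold change -2.66 ± 0.85, adjusted p = 0.0463). Among 2-cell stage genes 1 of 11 was higher (9.09%), Pramef25, at 0.453 and 0.569 CPM in SAHA and 0 in con. Replication-dependent histone genes had 5 of 27 higher (18.5%), all 5 at 0 in con. The tricarboxylic acid cycle had 1 of 23 higher (4.35%) and 2 lower (8.70%).

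In large gene families many of the genes called higher had 0 counts in con, where the direction is fixed and 68.4% of all genes tested were called. Of 1116 olfactory receptor genes, 65 were tested and 30 called higher (46.2%, against 20.2% of all genes tested), 24 of them at 0 in con, and Olfr283 had 1.64 and 3.41 CPM in SAHA and 0 in con. Keratin and protocadherin genes had 4 of 28 higher (14.3%), and solute carriers 38 of 234 higher (16.2%), 33 of them at 0 in con, and 20 lower (8.55%). Zinc finger genes named Zfp had 82 of 313 higher (26.2%, against 20.2%) and 18 lower (5.75%, against 6.76%), while the 141 of them with at least 10 counts in all 4 libraries had 18 higher and 16 lower, in a class where 8.27% and 12.5% of all genes were called. Zfp536 had 28.0 and 30.6 CPM in SAHA, against 0 and 0.0515 CPM in con. Its level in con-in vitro, 163 and 187 CPM, was above both. Zfp598, a ubiquitin ligase of stalled ribosomes, had 15.9 and 20.0 CPM in SAHA, against 259.9 and 189.6 CPM in con (log2 fold change -3.65 ± 0.42, adjusted p = 0.00257). With the exception of Kif20b, Zfp536 and Zfp598, the genes named here lost their call without at least 1 SAHA library, with adjusted p up to 0.207.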
